A study of Gallus gallus with 8 samples.

Results

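The genes described here are 7 members of the bone morphogenetic protein (Bmp) pathway in the chick wing bud: the ligands BMP4, BMP5 and BMP7, the antagonists GREM1 and BAMBI, and the targets MSX1 and MSX2. They were chosen by name, with earlier results of these data known. The study had already placed BMP5, BMP7, BAMBI and MSX2 among genes lower in grafted tissue than in tissue of the host's age. Transcripts in the deposited tables were matched to chicken gene symbols, and the estimated reads of each gene were added up. All 7 genes were found among the 14612 genes that matched, and all 7 were among the 9062 genes with enough reads to be tested. A RefSeq gene table places BMP5 on chromosome 3, BMP7 on 20, BMP4 and GREM1 on 5, BAMBI on 2, MSX1 on 4 and MSX2 on 13.

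RNA sequencing of distal wing tissue was available for 8 libraries in 3 groups, named after the Hamburger Hamilton (HH) stages of chick development. HH24g (2 libraries) was graft tissue: GFP-transgenic chicken donors (genotype CMV-GFP) at HH20 gave a 150 µm strip of distal wing mesoderm, which was freed of epithelium, cut into cubes and slipped beneath the ectodermal ridge at the tip of a wild type HH24 wing bud for 24 h. HH27 (3 libraries) was wild type, untreated distal tissue, which the methods of the study place in the opposite, non-grafted wing of the hosts, and HH24 (3 libraries) was wild type, untreated tissue of other embryos. By age the grafts matched HH24, whereas their host had reached HH27, and the design asks which genes follow the donor's age and which follow the host. The transgene is active in all tissues without interruption and marks the donor cells, so it does not select a cell type. Each library came from a pool of tissue samples, all eggs were kept at 37 °C, and the libraries of one group are replicate experiments rather than single embryos.

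Bmps are secreted ligands that bind paired type I and type II receptors and signal through phosphorylated Smad proteins to the nucleus. In the limb bud they are made in the mesoderm and in the ridge, the thickened epithelium at the tip that secretes fibroblast growth factors (Fgfs). Gremlin 1, the product of GREM1, binds Bmps outside the cell and thereby helps to maintain the ridge, and BAMBI is a receptor-like membrane protein without kinase activity that dampens signalling. MSX1 and MSX2 encode homeodomain transcription factors of the distal limb whose transcription responds to Bmps.

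Reads were few for some genes, which sets how firmly levels can be stated. The libraries held 1697272 to 5095662 estimated reads. HH24 replicate 2 stood apart, because a single transcript of 2691 nt that matched no gene took 74.3% of its reads. Its effective size after TMM scaling was 128310 reads, against 934656 to 3849593 in the other 7 libraries. The 7 Bmp genes together had 60 reads in HH24 replicate 2 and 455 to 3330 reads in each of the other libraries. In HH24 replicate 2 a single read was worth 7.79 CPM (reads scaled to a fixed library size, here the effective size), so a gene with 0 reads there could still have been present at up to 23.4 CPM (the level of 3 reads, counting error only). All 7 marker genes of distal limb mesenchyme had reads in every library, with summed levels of 1672 to 1712 CPM in HH24g, 1341 to 1505 CPM in HH27 and 1526 to 1903 CPM in HH24. The order of these sums rested on LHX9, the most abundant of the 7: the other 6 summed to 889 to 919 CPM in HH24g, 1251 to 1315 CPM in HH27 and 896 to 1076 CPM in HH24. Ectoderm markers (6 of 8 matched) summed to 362 to 435 CPM in HH24g, 415 to 517 CPM in HH27 and 324 to 405 CPM in HH24.

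Against the host stage, 4 of the 7 genes were lower in the grafts and 1 was higher. BMP5, BMP7, BAMBI and MSX2 fell in HH24g relative to HH27, GREM1 rose, and BMP4 and MSX1 did not pass the test. Here a gene passed when its Benjamini-Hochberg adjusted p in the limma voom fit was under 0.05 and its log2 fold change was beyond 1 in either direction. Of all 9062 genes, 1.71% passed in this comparison, 1.02% as higher and 0.695% as lower. Because the study had already listed the 4 lower genes from this series, their count beside these shares is a description and no test. The median log2 fold change was -1.30 over the 7 Bmp genes and -0.012 over all genes tested. In bulk tissue of this kind, fewer expressing cells and less RNA per cell cannot be told apart.

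**Figure D1:**
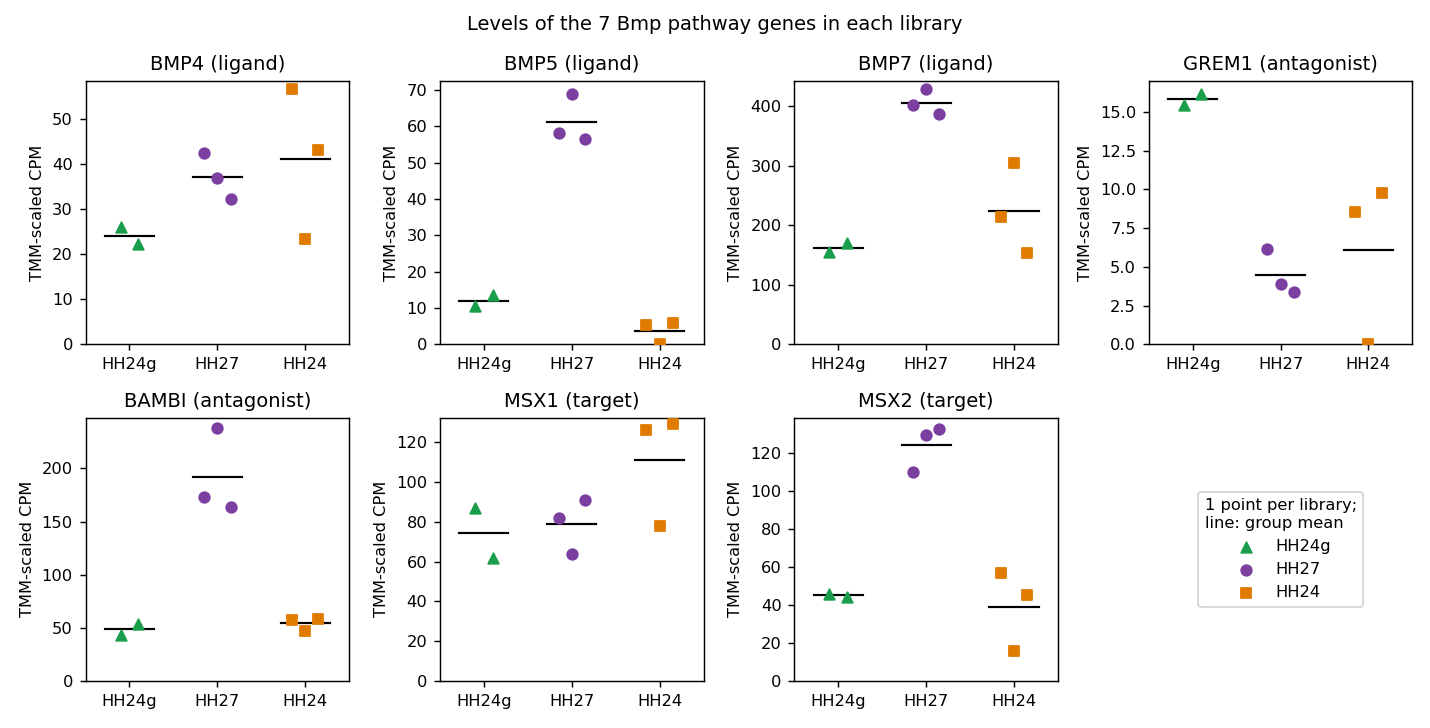
Level of each of the 7 genes in every library, in TMM-scaled CPM on the vertical axis, with HH24g, HH27 and HH24 from left to right. Each symbol is 1 library and each line a group mean. BMP5, BMP7, BAMBI and MSX2 are higher in all HH27 libraries than in any other library, while GREM1 is highest in both HH24g libraries.

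Among the ligands, BMP7 was the most abundant by TPM (reads per transcript length, scaled to a fixed total in each library), and BMP5 had the largest fold change in HH24g against HH27 and in HH27 against HH24. BMP7 had 155 and 169 CPM in HH24g replicates 1 and 2, 402, 428 and 386 CPM in HH27 replicates 1 to 3, and 213, 304 and 154 CPM in HH24 replicates 1 to 3. Both grafts lay below every HH27 library and inside the range of HH24. The log2 fold change of BMP7 was -1.30 ± 0.14 (SE, adjusted p = 0.0023) in HH24g against HH27, a level 2.46-fold lower in the grafts. In HH24g against HH24 it was -0.21 ± 0.17 (adjusted p = 0.677), with a 95% interval of -0.61 to 0.18. In HH27 against HH24 it was 1.09 ± 0.15 (adjusted p = 0.0128), close to the fold limit of 1.

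BMP5, a close relative of BMP7, had 10.5 and 13.4 CPM in HH24g, 58.2, 69.0 and 56.4 CPM in HH27, and 5.35, 0 and 5.87 CPM in HH24. The HH24 levels rested on 5, 0 and 6 reads, against 21 and 44 reads in HH24g and 152, 71 and 217 reads in HH27. The 3 groups did not overlap, with the grafts between the stages and nearer to HH24. BMP5 was 4.77-fold lower in HH24g than in HH27 (log2 fold change -2.25 ± 0.19, adjusted p = 0.00138), the gene with the sixth smallest p of all genes tested, and in HH27 against HH24 its log2 fold change was 3.33 ± 0.52 (adjusted p = 0.0196). The difference between HH24g and HH24, 1.07 ± 0.55, did not pass (adjusted p = 0.502, 95% interval -0.18 to 2.32), and the level of HH24 replicate 2 could lie above both grafts, since 0 reads there allow up to 23.4 CPM.

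Reads of BMP5 came from a predicted transcript of 3612 nt and a curated one of 1918 nt. The curated form took 23.1% and 26.4% of the BMP5 reads in HH24g, 36.8%, 27.8% and 31.4% in HH27, and 0 of the 5 and 6 reads in HH24 replicates 1 and 3. Since both transcripts belong to the same gene and share sequence, this division is an estimate. Each of the other 6 of the 7 genes was represented by a single transcript.

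BMP4, which is made in both the mesoderm and the ridge of the limb bud, had a different order of groups. It had 26.0 and 22.3 CPM in HH24g, 42.5, 36.9 and 32.2 CPM in HH27, and 56.7, 23.4 and 43.0 CPM in HH24. Both grafts were below all HH27 libraries, and below HH24 replicates 1 and 3 as well, whereas HH24 replicate 2 rested on 3 reads. No comparison passed: the log2 fold change was -0.62 ± 0.19 (adjusted p = 0.137) in HH24g against HH27, -1.02 ± 0.25 (adjusted p = 0.165) in HH24g against HH24 and -0.40 ± 0.22 (adjusted p = 0.435) in HH27 against HH24. Among the 3 ligands, BMP4 was the only one whose mean level was not highest in HH27: the means were 24.1 ± 2.58 CPM in HH24g (SD, n = 2), 37.2 ± 5.17 CPM in HH27 (n = 3) and 41.0 ± 16.8 CPM in HH24 (n = 3).

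The antagonists moved in opposite directions in HH24g against HH27. GREM1 had 15.5 and 16.2 CPM in HH24g, 6.13, 3.89 and 3.38 CPM in HH27, and 8.56, 0 and 9.78 CPM in HH24. These levels come from 31 and 53 reads in the grafts, 16, 4 and 13 reads in HH27, and 8, 0 and 10 reads in HH24. Both grafts lay above every HH27 library.

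GREM1 was 3.64-fold higher in HH24g than in HH27, with a log2 fold change of 1.86 ± 0.29 (adjusted p = 0.011). This call was lost in 5 of 18 alternatives, among them edgeR's quasi-likelihood test (adjusted p = 0.212), without HH24g replicate 2 (0.0697) and without HH27 replicate 3 (0.0854), while the log2 fold change stayed between 1.45 and 2.16 in all 18. Against HH24 both grafts were above all 3 libraries, but the log2 fold change of 0.80 ± 0.45 did not pass (adjusted p = 0.539), and the 23.4 CPM that 0 reads allow in HH24 replicate 2 lie above the graft levels. HH27 and HH24 overlapped only through HH24 replicate 2, with a log2 fold change of -1.07 ± 0.49 (adjusted p = 0.345).

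BAMBI, whose own transcription responds to Bmps in other vertebrates, followed BMP7 and BMP5 rather than GREM1. It had 43.4 and 53.5 CPM in HH24g, 173, 238 and 163 CPM in HH27, and 57.8, 46.8 and 58.7 CPM in HH24. Levels in HH24g and HH24 all lay between 43.4 and 58.7 CPM, and every HH27 library was far above them. HH24 replicate 2 rested on 6 reads, and HH24 replicates 1 and 3 were both slightly above the grafts. BAMBI was 3.69-fold lower in HH24g than in HH27 (log2 fold change -1.89 ± 0.18, adjusted p = 0.00169) and 3.11-fold higher in HH27 than in HH24 (1.64 ± 0.23, adjusted p = 0.0128). Between HH24g and HH24 the log2 fold change was -0.25 ± 0.26 (adjusted p = 0.763, 95% interval -0.84 to 0.34).

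The target MSX2 was, like BAMBI, highest in HH27, and MSX1 was not. MSX2 had 45.9 and 44.0 CPM in HH24g, 110 (replicate 1), 129 and 132 CPM in HH27, and 56.7, 15.6 and 45.0 CPM in HH24. All HH27 libraries stood above all others, and the grafts lay inside the HH24 spread. The low end of that spread, HH24 replicate 2, rested on 2 reads, and HH24g replicate 2 lay just below HH24 replicates 1 and 3. MSX2 was 2.75-fold lower in HH24g than in HH27 (log2 fold change -1.46 ± 0.14, adjusted p = 0.00182) and 2.53-fold higher in HH27 than in HH24 (1.34 ± 0.22, adjusted p = 0.0211). Its log2 fold change between HH24g and HH24 was -0.12 ± 0.24 (adjusted p = 0.89, 95% interval -0.66 to 0.42), a direction that turned without HH24 replicate 1.

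MSX1 had 86.8 and 62.0 CPM in HH24g, 82.0, 64.1 and 91.2 CPM in HH27, and 126, 77.9 and 129 CPM in HH24. Grafts and HH27 overlapped, and the highest levels were those of HH24 replicates 1 and 3. The log2 fold change of MSX1 was -0.19 ± 0.18 (adjusted p = 0.656) in HH24g against HH27, with a 95% interval of -0.60 to 0.22, which lies within the fold limit on both sides. It was -0.79 ± 0.21 (adjusted p = 0.204) in HH24g against HH24 and -0.60 ± 0.20 (adjusted p = 0.2) in HH27 against HH24.

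**Figure D2:**
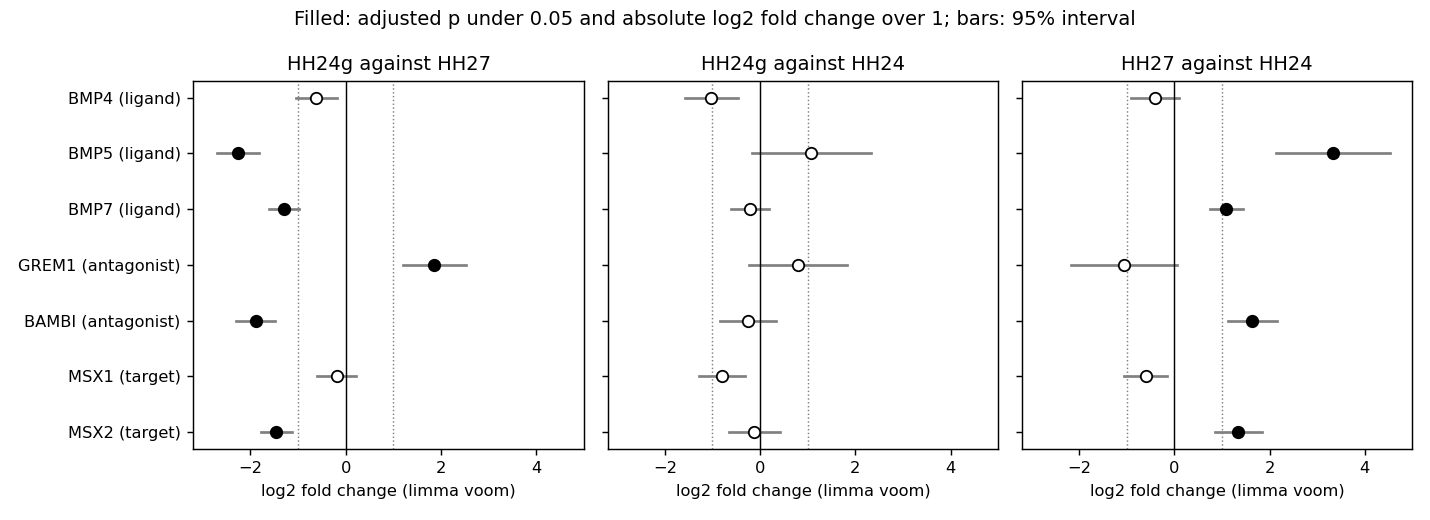
Log2 fold change of each gene (horizontal axis) in the 3 comparisons, with 95% intervals from the limma voom fit; dotted lines mark the fold limit and filled points passed the test. In HH24g against HH27, 5 of 7 points are filled, with GREM1 alone on the right, and in HH24g against HH24 none is filled.

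Across the 7 genes, the libraries of HH24g and HH27 did not overlap for 6 of the 7 genes (1 higher, 5 lower), against 32.7% of all genes tested (16.3% higher, 16.4% lower). With the 7 chosen when earlier results were known, this too is a description. Between HH24g and HH24 none of the 7 passed the limma voom test, where 0.0110% of all genes (1 of 9062) passed. BMP4 and MSX1 had an unadjusted p under 0.05 in that fit (0.00268 and 0.00502 by limma voom), as did 1020 of the 9062 genes (11.3%), and neither edgeR nor DESeq2 called any of the 7. The groups did not overlap for 2 of 7 genes, BMP5 and GREM1, both higher in the grafts, against 27.1% of all genes (16.2% higher, 10.9% lower).

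In HH27 against HH24, 4 of the 7 genes rose (BMP5, BMP7, BAMBI and MSX2) and none fell, against 1.07% of all genes that passed, 0.463% as higher and 0.607% as lower. The same 4 genes had no overlap between the stages, against 23.6% of all genes (13.7% higher, 9.94% lower). The median log2 fold change of the 7 was 1.09, and that of all genes 0.026. These comparisons share libraries with the graft comparisons, so the values stand side by side and are not independent of each other. The 4 genes are also those that the study had listed as lower in the grafts, so the shares over all genes are no test here either. The count of 4 depended on HH24: it was 3 without HH24 replicate 2, when BMP5 did not pass, and 0 without HH24 replicate 1 or without replicate 3.

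Levels of different genes can be set side by side only per transcript length, for which TPM values were used within each library. In all 3 HH27 libraries the order by TPM was BAMBI, MSX2, BMP7, MSX1, BMP4, BMP5 and GREM1. In HH24 replicates 1 and 3 it was MSX1, BAMBI, MSX2, BMP7, BMP4, GREM1 and BMP5. The grafts had MSX1 and BAMBI at the top, and both had more GREM1 than BMP4 or BMP5. GREM1 stood at 24.7 and 20.8 TPM in HH24g, against 18.5 and 12.8 TPM of BMP4 in the same libraries. HH24 replicate 2, with few reads, gave no usable order.

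Relative to the ligands, GREM1 was highest in the grafts. Its TPM divided by the summed TPM of BMP4, BMP5 and BMP7 was 0.423 and 0.431 in HH24g, 0.0667, 0.0409 and 0.0402 in HH27, and 0.149, 0 and 0.229 in HH24. Among libraries with a GREM1 read, the grafts had the highest ratios and HH27 the lowest. The ratio of 0 in HH24 replicate 2 comes from 0 GREM1 reads over a ligand sum of 1.96 TPM, so it sets no level. BAMBI over the ligands was 1.02 and 1.22 in HH24g, 1.61, 2.14 and 1.66 in HH27, and 0.862, 0.722 and 1.18 in HH24, so that the ratio was highest in HH27 and the other groups overlapped. The balance of the antagonists differed accordingly: BAMBI exceeded GREM1 by 2.40 and 2.82 times in HH24g, by 24.2, 52.4 and 41.4 times in HH27, and by 5.77 and 5.13 times in HH24 replicates 1 and 3.

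The targets also differed in their ratio to the ligands. MSX2 over the ligands was 0.821 and 0.764 in HH24g, 0.782, 0.889 and 1.03 in HH27, and 0.646, 0.185 and 0.689 in HH24, with overlap between grafts and HH27. MSX1 over the ligands was 1.28 and 0.886 in HH24g, 0.480, 0.364 and 0.584 in HH27, and 1.18, 0.761 and 1.63 in HH24, with all HH27 libraries below all others. MSX2 therefore exceeded MSX1 only in HH27, where their ratio was 1.63, 2.45 and 1.77, against 0.642 and 0.862 in HH24g and 0.546, 0.243 and 0.423 in HH24. All these ratios are descriptions without a test.

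**Figure D3:**
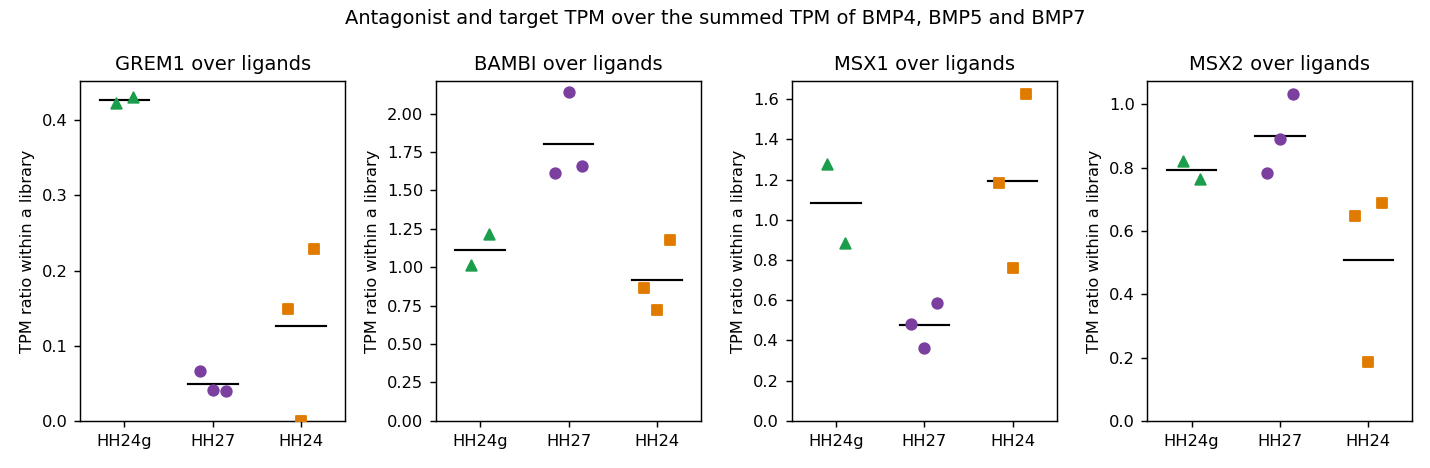
TPM of each antagonist and target divided by the summed TPM of the 3 ligands (vertical axis, no unit), 1 symbol per library and a line at the group mean, with HH24g, HH27 and HH24 from left to right. The ratio of GREM1 is 0.423 and 0.431 in the grafts and below 0.23 in every other library, and that of MSX1 is lowest in HH27. The GREM1 ratio of 0 in HH24 replicate 2 comes from 0 reads and sets no level.

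Among these 3 ligands, BMP7 made up the largest part in all libraries, with 61.9% and 65.4% of ligand TPM in HH24g, 63.8%, 65.9% and 67.1% in HH27, and 54.1%, 81.0% and 52.4% in HH24. BMP4 held 31.8% and 26.5% in HH24g, 20.7%, 17.4% and 17.2% in HH27, and 44.2%, 19.0% and 45.1% in HH24. The share of BMP5 was 6.33% and 8.06% in HH24g, 15.5%, 16.6% and 15.8% in HH27, and 1.68%, 0% and 2.48% in HH24. Leaving aside HH24 replicate 2, the shares of BMP4 and BMP5 in the grafts lay between those of the stages.

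Of 52 further Bmp pathway genes listed by role, 46 matched a transcript and 30 were tested. BMP2, a further limb ligand among those listed, matched no transcript and was not analysed here, so the ligand sums and shares leave it out. In HH24g against HH27, 1 of the 30 rose and 1 fell, where 1.71% of all genes passed. In HH24g against HH24 none passed, where 0.0110% of all genes did, and in HH27 against HH24, 1 fell, where 1.07% of all genes passed. In HH24g against HH24, 7 of the 30 had an unadjusted p under 0.05 in the limma voom fit, as did 11.3% of all genes, edgeR called none and DESeq2 called 1, the secreted antagonist NBL1. The median log2 fold changes of the 30 were -0.039, 0.18 and 0.31 in these comparisons, beside -0.012, 0.020 and 0.026 over all genes.

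Of the receptors and co-receptors, 7 were tested and none passed, with log2 fold changes between -0.026 and 0.78 in HH24g against HH27. ACVR2A, an activin and Bmp type II receptor, was the highest of the list by mean TPM, though not by CPM. It averaged 181 ± 13.0 CPM in HH24g (SD, n = 2), 185 ± 9.36 CPM in HH27 and 201 ± 24.5 CPM in HH24 (n = 3 each). Its log2 fold change was -0.026 ± 0.094 in HH24g against HH27 (adjusted p = 0.923). None of the 3 Smad transducers tested passed, with a median of -0.41 in that comparison. SMAD5, which carries the signal to the nucleus, averaged 169 ± 12.6 CPM in HH24g, 232 ± 46.4 CPM in HH27 and 205 ± 93.3 CPM in HH24.

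Of the other secreted antagonists and modulators, 6 were tested and none passed (log2 fold change -0.50 to 2.32 in HH24g against HH27), so GREM1 was the only secreted antagonist that did. CHRDL1, a chordin-like protein, had the value of 2.32. It had 34 and 26 reads in HH24g, 18, 0 and 5 reads in HH27, and 32, 7 and 16 reads in HH24, and its log2 fold change in HH27 against HH24 was -3.49 ± 1.00 (adjusted p = 0.146). DESeq2 and the fit with a replicate block did call CHRDL1 in that comparison. FSTL1, a follistatin-like glycoprotein and by TPM the most abundant of them, averaged 1584 ± 182 CPM in HH24g, 1932 ± 183 CPM in HH27 and 1140 ± 80.3 CPM in HH24. The 4 intracellular inhibitors tested had a median of 0.091. SMURF2, a ubiquitin ligase that targets Smads and receptors and the highest of these by TPM, had 61.9 and 118 CPM in HH24g, 51.4, 98.1 and 84.9 CPM in HH27, and 79.2, 0 and 92.9 CPM in HH24, with overlap of all groups. Only BMP6 was tested among 10 other ligands, with a log2 fold change of 0.10 ± 0.42 in HH24g against HH27 (adjusted p = 0.936). GDF3, the highest of that list by TPM, had 13 reads or fewer in every library.

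Other Bmp targets (9 tested) had a median of -0.61 in HH24g against HH27, with no overlap and lower levels in the grafts for 6 of the 9, against 16.4% of all genes. This list was chosen with earlier results of these data known, so the count is a description and no test. ID1, an inhibitor of basic helix-loop-helix factors and a widely used Bmp readout, averaged 49.3 ± 6.58 CPM in HH24g, 65.2 ± 2.40 CPM in HH27 and 54.8 ± 13.7 CPM in HH24. Its log2 fold change of -0.43 ± 0.15 in HH24g against HH27 did not pass (adjusted p = 0.179).

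CDKN1C, an inhibitor of cyclin-dependent kinases, was, like GREM1, higher in the grafts than in HH27. It had 40.4 and 42.8 CPM in HH24g, 14.9, 12.6 and 18.4 CPM in HH27, and 37.5, 39.0 and 37.2 CPM in HH24, so that both grafts were slightly above the HH24 libraries and HH27 stood well below. CDKN1C rose in HH24g against HH27 (log2 fold change 1.35 ± 0.16, adjusted p = 0.00314) and fell in HH27 against HH24 (-1.20 ± 0.19, adjusted p = 0.0211). That second result was lost in 6 of 17 alternatives: without any one of the HH24 replicates (adjusted p = 0.126, 0.0536 and 0.144 without replicates 1 to 3), without HH27 replicate 1 (0.0535), without a filter on low counts (0.05003) and with unmatched transcripts kept (0.0944).

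SOX9, a transcription factor of cartilage precursors, fell in HH24g against HH27. The study had already placed SOX9, too, among genes lower in grafted tissue than in tissue of the host's age. It had 6 and 11 reads in HH24g, 33, 12 and 77 reads in HH27, and 6, 0 and 4 reads in HH24, with means of 3.18 ± 0.26 CPM in HH24g (SD, n = 2), 14.8 ± 4.56 CPM in HH27 and 3.44 ± 3.24 CPM in HH24 (n = 3 each). All HH27 libraries lay above both grafts. The log2 fold change was -2.23 ± 0.46 (adjusted p = 0.0355), and it did not pass in 8 of 18 alternatives: under edgeR (adjusted p = 0.125), with only the 2 groups in the fit (0.120), with a replicate block (0.0754), with unmatched transcripts kept (0.115), without HH24g replicate 1 or 2 (0.136 and 0.296) or without HH24 replicate 1 or 2 (0.05003 and 0.0870).

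**Figure D4:**
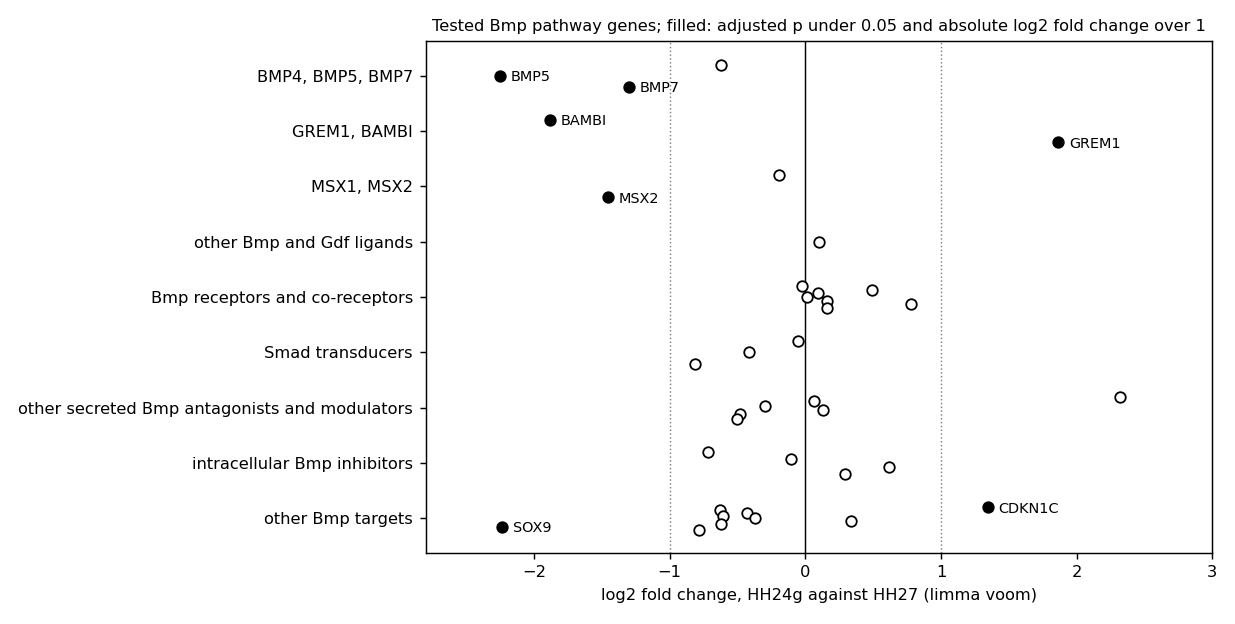
Log2 fold change in HH24g against HH27 (horizontal axis) of the 7 genes and of 30 other tested Bmp pathway genes, 1 point per gene in rows by role, with filled points passing the test. BMP5, BMP7, BAMBI, MSX2 and SOX9 lie left of -1 and GREM1 and CDKN1C right of 1, beside an open point at 2.32 (CHRDL1, which did not pass), while receptors lie between -0.026 and 0.78.

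Some marker genes moved with these groups. Of the 7 distal mesenchyme markers, LHX9 was higher in HH24g than in HH27 (log2 fold change 2.34, limma voom adjusted p = 0.0128). HOXD12 was lower (-2.10, limma voom adjusted p = 0.00138), where 1.71% of all genes passed. Without overlap of the groups 3 of the 7 were higher and 4 lower, against 16.3% and 16.4% of all genes tested. With lists chosen when earlier results were known, these counts are a description. Ridge markers (4 of 4 matched) summed to 15.9 and 16.5 CPM in HH24g, 17.5 to 26.1 CPM in HH27 and 26.7 to 31.2 CPM in HH24. Both graft sums were below every HH27 sum, the direction of BMP5, BMP7, BAMBI and MSX2 in that comparison. Every HH27 sum was below every HH24 sum, while those 4 genes were higher in HH27 than in HH24. Ectoderm sums had the order of those 4 genes: 415 to 517 CPM in HH27 and 324 to 405 CPM in HH24. That was also the order of 13.7% of all genes tested. Between HH24g and HH27 the ectoderm sums overlapped. The ridge sums rest on few reads, though. In HH24 replicate 2 only SP8 and WNT3A had reads, 2 each, and HH27 replicate 1 (26.1 CPM) and HH24 replicate 1 (26.7 CPM) were nearly equal. HH24g replicate 1 (16.5 CPM) and HH27 replicate 2 (17.5 CPM) were also close. Neither the order of HH27 and HH24 nor that of HH24g and HH27 is therefore firm. The order of HH24g and HH27 rested on FGF8, with means of 5.09 CPM in HH24g and 12.2 CPM in HH27. In HH24g and HH27 the means were 4.08 and 3.35 CPM for SP8, 5.15 and 4.89 CPM for WNT3A, and 1.86 and 1.97 CPM for FGF4. FGF8, the Fgf of the whole ridge and the only ridge marker tested, did not overlap between HH24g and HH27 (log2 fold change -1.29 ± 0.32, adjusted p = 0.0763). FGF8 overlapped between HH27 and HH24 (log2 fold change -0.26 ± 0.38, adjusted p = 0.800 by limma voom). It was at 0 reads in HH24 replicate 2, and FGF4 in that library and in HH27 replicate 2. Endothelial markers (7 of 7) summed to 215 to 227 CPM in HH24g, 149 to 178 CPM in HH27 and 128 to 203 CPM in HH24. Leukocyte markers (3 of 4) summed to 25.0 to 28.7 CPM in HH24g, 16.5 to 21.8 CPM in HH27 and 15.6 to 20.3 CPM in HH24. Endothelial, leukocyte and, with LHX9 included, distal mesenchyme sums were higher in both grafts than in every HH27 library. That was also the order of GREM1 and of 16.3% of all genes tested. Erythroid markers (4 of 7) reached 439 to 841 CPM in HH24g, 257 to 1324 CPM in HH27 and 2285 to 2840 CPM in HH24. Muscle precursor markers summed to at most 5 reads in any library, and MYOG was at 0 in all. The part of these tissues in the levels of the Bmp genes was not tested.

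The genes whose levels ran most like each Bmp gene were found by Pearson's r over log2 CPM of the 8 libraries, among 7659 or 7660 genes with a mean of at least 10 CPM. With 8 points that fall into 3 groups, and share depth within each library, these values are a description only. BMP5 ran closest to SERPINI1 (r = 0.989) and PRICKLE1 (0.982), BMP7 to HRAS (0.975) and HOXD13 (0.974), and BMP4 to TRIM3 (0.965) and PLEKHG1 (0.957). GREM1 ran closest to XPOT (0.984) and GHITM (0.972), values that were 0.951 and 0.909 without HH24 replicate 2. BAMBI ran closest to DELE (0.986) and CPAMD8 (0.982). For MSX2 the closest were COL26A1 (0.992) and RPL3 (0.983), and for MSX1 they were CCSER2 (0.951) and NOL6 (0.950). No gene among these was another of the 7.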

How the data were processed

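RNA from pools of distal wing tissue was extracted with Trizol and chloroform, depleted of ribosomal RNA and made into stranded libraries. For each library the authors deposited estimated counts per RefSeq transcript (reads divided among similar transcripts, not always whole) and TPM values computed from those and the transcript lengths. The submitters' processing notes name Salmon, HISAT2 2.0.2, limma and the build galGal4. Their roles are not given. The study made 3 replicate experiments of each condition and left out 1 HH24 and 1 HH24g library, which the labels do not identify. For HH24g, 2 libraries were available here. For HH24 all 3 were available and fitted, so by these numbers the HH24 library that the study left out is among them.

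Of 57399 transcripts, 26660 (46.4%) matched a gene of a RefSeq table of another build, used only for names and chromosomes, so no coordinates are given. Matched reads made up 45.5% to 67.6% of each library, and 9.24% of HH24 replicate 2. Reads without a gene stayed out of library sizes. Counts were summed per gene, rounded, filtered (filterByExpr, minimum count 10, minimum total 15), scaled by TMM and fitted with voom and limma, with 1 mean per group over all 8 libraries. CPM are counts over the TMM-scaled library size. The 3 comparisons were adjusted by the Benjamini-Hochberg method over 9062 genes each. The same-numbered libraries of different groups did not deviate together (correlations -0.029 to 0.040), and replicates differed beyond sampling noise. The chi-square per degree of freedom was 4.63 to 6.00 in replicate pairs without HH24 replicate 2. It was 27.7 and 38.0 between HH24 replicate 2 and HH24 replicates 1 and 3.

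The members and lists were chosen with earlier results of these data known. All 7 genes are named, and of the other pathway genes those that passed in any comparison and the highest by mean TPM in each list. For each of the 7, the 2 genes with the highest r are named. NBL1, BMP6, CHRDL1 and the single marker genes were named after their values were seen. The alternatives were edgeR and DESeq2, other size factors, filters and fold limits, quality weights, only the groups compared, a replicate block, other transcript sets, reads per kb and leaving out each library. A planned search of promoters for motifs was not run, and promoter sequences were not used here. Fits were run in R 4.3.3 with edgeR 4.0.16, limma 3.58.1 and DESeq2 1.42.0. Tables and plots were made with matplotlib 3.10.9, scipy 1.17.1 and pandas 2.3.3 under Python 3.11.15.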

Additional observations from a re-analysis of the deposited data

How the results depend on the processing

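Of 60 recomputed counts of Bmp genes that passed, 54 stayed within 1.5 times the reported count. The 54 include all counts for HH24g against HH24, which were 0 in every alternative. Drops from 5 to 4 genes and from 4 to 3 genes, such as those under edgeR, are also among them. A filter that asked for 10 counts or more in each library left BMP7 and MSX1 to test, and 1 of them (BMP7) passed both in HH24g against HH27 and in HH27 against HH24. In HH27 against HH24, 1 gene passed when unmatched transcripts were kept as features and 2 when only curated transcripts were used, a set without BMP7. Leaving out 1 library at a time gave 4 to 5 in HH24g against HH27, 0 throughout in HH24g against HH24, and 0 to 4 in HH27 against HH24. BMP5, BMP7, BAMBI and MSX2 passed in HH24g against HH27 in every alternative in which they were tested. Of 380 log2 fold changes, 357 kept direction and side of the threshold, 20 no longer passed and 3 turned: MSX1 in HH24g against HH27 was 0.022 with a replicate block and -0.40 to 0.090 with single libraries left out, and MSX2 in HH24g against HH24 was -0.20 to 0.097 with single libraries left out. The cause was not tested. The labels do not say whether same-numbered libraries came from the same experiment, although the methods place HH27 tissue in the hosts of the grafts. With a replicate block, 4 genes passed in HH24g against HH27, 0 in HH24g against HH24 and 4 in HH27 against HH24. GREM1 no longer passed (1.59, adjusted p = 0.0754). With only the groups compared in the fit, GREM1 had an adjusted p of 0.0514. In HH27 against HH24, BMP7 fell to 1.00 under edgeR and 0.97 under DESeq2, just under the fold limit. Over all genes, HH24g against HH24 had 1 gene that passed, against 14 under edgeR, 120 under DESeq2, 20 under the filter of 10 counts and 20 without HH27 replicate 3; HH24g against HH27 had 155, 98, 154, 34 and 143, and HH27 against HH24 had 97, 108, 212, 42 and 71. Without a fold limit these were 1, 289 and 161. HH27 against HH24 had 24 without HH24 replicate 1, 63 without replicate 2 and 21 without replicate 3, and 36 with unmatched transcripts and 32 with curated ones only. HH24g against HH27 had 61 with curated transcripts only and 94 without HH24g replicate 2.

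Of 56 recomputed ratios to the ligands, 42 moved by less than the spread of their group. With reads per kb of the longest transcript, the ratio in HH24g was 0.363 for GREM1 and 0.732 for MSX2. With curated transcripts only, which leaves BMP7 out of the ligand sum, the ratios in HH24g, HH27 and HH24 were 1.34, 0.187 and 0.282 for GREM1, 3.52, 7.01 and 2.78 for BAMBI, 3.36, 1.84 and 3.43 for MSX1, and 2.48, 3.50 and 1.32 for MSX2. Depth limits GREM1 and BMP5 most, since HH24 replicate 2 held 0 reads of either, and n = 2 for the grafts limits every comparison with them.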

Other observations

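BMP3, a ligand-like member of the family, was not tested for want of reads and was picked out after its values were seen. It had 19 and 17 reads in HH24g, 2, 2 and 4 reads in HH27, and 1, 0 and 0 reads in HH24. In the fit without a filter on low counts its log2 fold change was 2.41 in HH24g against HH27 (limma voom, adjusted p = 0.128).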
